A study of Mus musculus with 6 samples.

Results

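Solute carriers are membrane proteins that move sugars, amino acids, citrate, bile acids, metal ions, vitamins and nucleotide sugars across the plasma membrane and the membranes of organelles. This is an account of their transcripts in the liver of male mice on the C57BL/6J background that lack apolipoprotein E. The genes were taken by symbol: every gene whose RefSeq symbol begins with Slc and a digit, without the mitochondrial Slc25 family and without Slc10a1, Slc27a5, Slc1a2, Slc40a1, Slc39a14, Slc30a1 and Slc4a1. A gene counted as a member where a probe lay well above background in both channels on all 6 arrays, and the brightest such probe stood for it. Of 317 Slc genes in scope, 197 met this rule, among 20659 features tested in all. The symbol pattern also took 4 proteins that are named after a carrier and carry nothing themselves, Slc4a1ap, Slc7a6os, Slc9a3r1 and Slc9a3r2, which leaves 193 carriers.

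All mice lacked Apoe, in both groups, and no wild-type animals were compared. For 11 weeks the control group of 9 mice was fed a Western diet, made with 20% palm oil and 0.15% cholesterol, and the other group of 10 mice ate that diet with 1% squalene, which the labels equate with 1 g per kg of body weight. Squalene is the hydrocarbon from which cells make sterols. Liver RNA of 2 or 3 animals was combined into each of 4 pools per diet, so a single mouse's spread was not measured, and the sources used here do not state the ages of the mice. Each two-colour array carried 1 squalene pool and 1 Western pool, and the pool pair was the replicate (n = 4). Pairs 1 and 2 were run on each of 2 slides and their repeat arrays averaged, while pairs 3 and 4 were run once, on slide 2. Pairs 1 and 4 had squalene in the red dye, Cy5, and pairs 2 and 3 had it in the green dye, Cy3. Values below are log2 ratios of squalene over Western, where 0 is no difference, or log2 intensities of 1 pool where the text says level. Pools are numbered by their pair, and 4 values in a row are those of pairs 1 to 4. The tissue label was checked against 13 hepatocyte markers, all of which were measured, with mean levels of 16.15 to 16.40 in the squalene pools and 16.11 to 16.37 in the Western pools.

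The hepatocyte uses carriers on both of its faces. On the side towards the blood it takes up glucose, citrate, amino acids and organic ions, and on the side towards the bile duct it passes out organic cations and drugs. Inside the cell, carriers of the endoplasmic reticulum and Golgi bring in glucose 6-phosphate, which is split there to release glucose, and nucleotide sugars, which are spent on glucuronidation and on the sugar chains of proteins. Kupffer cells, the macrophages of the liver, carry their own set in lysosomes for iron, heme and peptides. In whole liver RNA, fewer cells of a type and less RNA per cell cannot be told apart.

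The members' promoters were looked up in RefSeq (build GRCm38.p6, from 250 bases before to 50 after the start), where 151 of 197 members had an entry, with 206 promoters. Those of 3 carriers are shown, since these are the carriers with 1 sign in all 4 pairs that stand at the top of the higher and lower sides by unadjusted p and have an entry: Slc10a2 and Slc35d1 on the higher side and Slc13a5, which has 2 listed starts, on the lower side. They are printed 5′ to 3′ on the minus strand, on which all 3 genes lie. Capitals mark a match to AGTTCA, to GTTAAT or to its reverse complement. AGGTCA and AGTTCA are hexamers that nuclear receptors bind, GTTAAT is the core bound by HNF1, and CACGTG is an E box. All were searched on both strands.

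Slc10a2, chr8:5105238-5105537: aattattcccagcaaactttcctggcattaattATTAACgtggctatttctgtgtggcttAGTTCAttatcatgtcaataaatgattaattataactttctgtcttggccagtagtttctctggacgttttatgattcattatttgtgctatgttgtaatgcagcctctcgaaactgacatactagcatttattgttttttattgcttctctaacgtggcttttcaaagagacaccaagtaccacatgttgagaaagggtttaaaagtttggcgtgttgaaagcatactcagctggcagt

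Slc35d1, chr4:103215127-103215426: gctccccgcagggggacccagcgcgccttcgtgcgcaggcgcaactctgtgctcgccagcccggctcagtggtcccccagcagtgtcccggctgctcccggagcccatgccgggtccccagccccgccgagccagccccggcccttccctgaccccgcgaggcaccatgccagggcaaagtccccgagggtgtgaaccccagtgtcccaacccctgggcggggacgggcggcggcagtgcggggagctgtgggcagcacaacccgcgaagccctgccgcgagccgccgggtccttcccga

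Slc13a5, chr11:72267112-72267411: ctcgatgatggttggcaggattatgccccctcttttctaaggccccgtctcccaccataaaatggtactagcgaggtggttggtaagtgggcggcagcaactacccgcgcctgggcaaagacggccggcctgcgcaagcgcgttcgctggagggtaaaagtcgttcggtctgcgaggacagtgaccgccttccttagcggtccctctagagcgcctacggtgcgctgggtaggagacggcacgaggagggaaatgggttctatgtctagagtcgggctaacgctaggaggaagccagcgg

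Slc13a5, chr11:72266555-72266854: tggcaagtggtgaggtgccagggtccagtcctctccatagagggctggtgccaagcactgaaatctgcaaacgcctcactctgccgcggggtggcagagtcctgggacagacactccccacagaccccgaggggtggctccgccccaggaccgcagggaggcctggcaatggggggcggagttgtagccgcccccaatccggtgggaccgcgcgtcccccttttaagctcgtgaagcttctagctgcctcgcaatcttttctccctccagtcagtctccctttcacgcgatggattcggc

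The Slc10a2 window held AGTTCA from base -190 and GTTAAT, on the other strand, from base -217 relative to the start. None of these 4 motifs was found in the windows of Slc35d1 and Slc13a5. Over all 32851 promoters of the table, AGTTCA was in 14% and GTTAAT in 7.1%, and over the members' promoters in 14.1% and 6.31%. AGGTCA was in 16.3% of all and 17.5% of the members' promoters. CACGTG was in 7.15% of all and 12.6% of the members' promoters, whose median GC content was 60.3% against 52.7% in all. A match describes letters in the window, not a bound site.

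The mean ratios of nearly all carriers lay close to 0. Mean ratios ran from -0.57 for the peptide carrier Slc15a2 to 0.28 for the ascorbate carrier Slc23a1, and the median over the 197 members was -0.0030, against 0.0029 over all features. With median centring in place of loess the members' median was 0.010, on the other side of 0. A mean above 0 was found for 93 members and one below 0 for 104. Ratios below 0 made up 52.8% of members and 48.2% of all features. The 95% interval of the mean lay within 0.5 either way for 174 members and within 1 for all 197. These intervals rest on a fit with a term for dye orientation, which takes up the difference between pairs 1 and 4 and pairs 2 and 3. For some carriers, such as Slc22a7 (SD 0.98, SE 0.26), these intervals are narrower than the SD alone would give. A carrier near background in either diet could not be a member, so the rule leaves out carriers that are silent on one diet.

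No member passed an adjusted p of 0.05 (limma with Benjamini-Hochberg adjustment over 20659 features), and neither did any feature, 0%. The smallest adjusted p of a member was 0.9999. An unadjusted limma p under 0.05 was found for 14 members, 7.11%, of which 6 were higher and 8 lower, against 2.47% of all features and 2.58% of the 18925 features that met the same brightness mark on all arrays, called equally bright below. The higher ones were Slc10a2, Slc35d1, Slc17a9, Slc35a2, Slc30a9 and Slc26a1, 6 genes where 1.06% of all features were higher in this way, and the lower ones were Slc13a5, Slc6a8, Slc15a2, Slc4a11, Slc37a2, Slc6a20a, Slc13a4 and Slc7a4, 8 genes where 1.42% were lower. These 14 are called the nominal carriers below. Over 15 alternative settings the unadjusted p stayed under 0.05 in 15 for Slc13a5, 15 for Slc6a8, 14 for Slc10a2, 13 for Slc15a2, 12 for Slc13a4 and 10 for Slc35d1, and in 3 to 9 for the other 8. Without pair 1, 2, 3 or 4 the count was 9, 28, 18 or 7, and 5, 5, 7 or 4 of the 14 were among these. Over all 20659 features the count was 555, 1303, 871 or 362, against 511 with all 4 pairs, so it moved there too. Among the members the balance of directions depended on the pairs: 1 was higher and 8 lower without pair 1, 17 and 11 without pair 2, 3 and 15 without pair 3, and 2 and 5 without pair 4. Means given with a pair left out are from this fit, in which both dye orientations weigh equally. The count of members was 8 without the term for dye orientation, and 7 of the 14 were among these. Slc15a2, Slc17a9, Slc26a1, Slc30a9, Slc35a2, Slc37a2 and Slc6a20a were not. It was 8 with the scanner's own processed signals, 6 with median centring and 6 with the authors' deposited value table, where 1, 1 and 0 were higher. Over all features the count was 254 without the dye term, and 588, 202 and 183 in the latter settings. The same sign in all 4 pairs was found for 17 members, 8.63% against 6.38% of all features and 6.14% of the equally bright ones. It was above 0 for 8 members (3.33% of all features) and below 0 for 9 (3.06%). These signs are of repeat arrays averaged. On 1 repeat array of pair 1 Slc17a9, Slc35f6, Slc44a1 and Slc66a1 had the other sign, as Slc18a1 had on 1 of pair 2. The levels of the 4 squalene pools and the 4 Western pools did not overlap for 1 member, 0.508% against 0.774%. A mean ratio past 0.2 either way was found for 15 members, 7.61% against 3.42%.

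**Figure D1:**
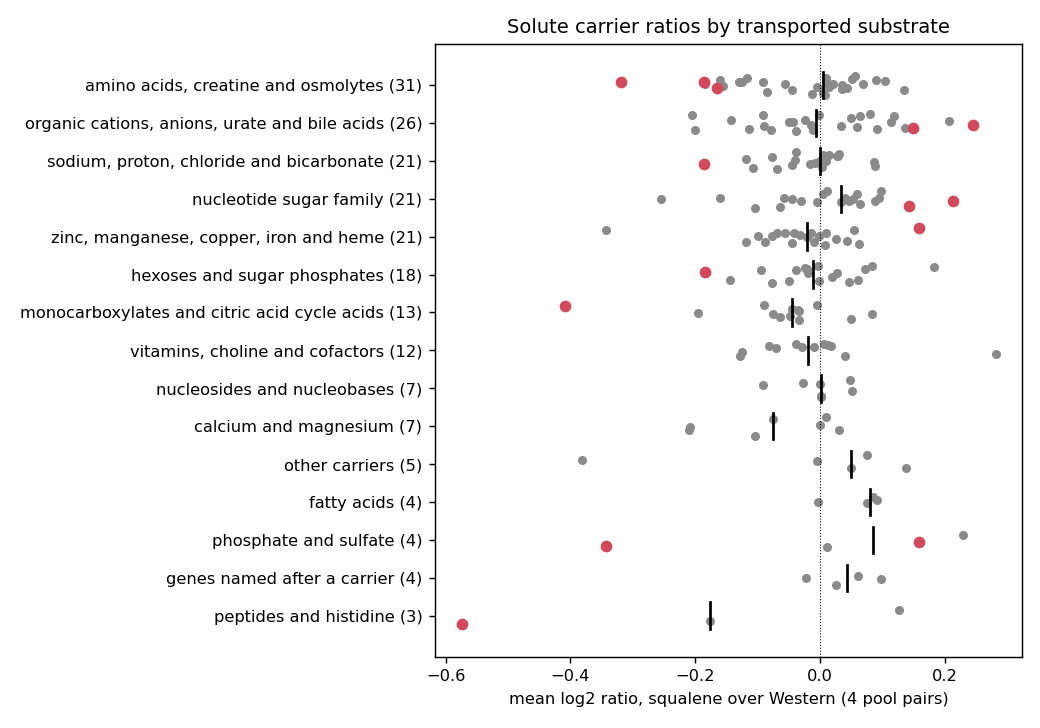
Mean log2 ratio of squalene over Western over 4 pool pairs (horizontal axis) for the 197 members, grouped by what they carry, with the number of members in brackets. Each point is 1 gene, red where the unadjusted limma p was under 0.05 (14 genes, none past the adjusted test), and the black bar is the group's median. The group medians lie between -0.18 and 0.086.

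Slc13a5, the sodium-coupled citrate carrier of the hepatocyte membrane facing the blood, had the smallest unadjusted p of all members. Citrate taken up this way can feed the synthesis of fatty acids and sterols. Its level in squalene pools 1 to 4 was 8.53, 7.81, 8.22 and 7.58, and in Western pools 1 to 4 8.60, 8.32, 8.94 and 7.91. Each squalene pool was below the Western pool on the same array, but the groups overlapped, since squalene pool 1 was above Western pools 2 and 4. The 4 ratios were -0.074, -0.51, -0.72 and -0.33, and the mean was -0.41 (SD 0.27, SE 0.074), a difference of -24.7%. A second probe of the gene had a mean ratio of -0.36. Its unadjusted p stayed under 0.05 in each of 15 alternative settings, in which the mean ratio ran from -0.52 to -0.34, while the smallest adjusted p in any of them was 0.589.

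Of the 13 carriers of monocarboxylates and citric acid cycle acids, 11 had a mean below 0, with a median of -0.044, and Slc13a5 was the single nominal carrier. The other citric acid cycle acid carriers, Slc13a2 and Slc13a3, had means of -0.0051 and -0.034. Slc16a1, which moves lactate, pyruvate and ketone bodies with a proton, had ratios of -0.0081, -0.23, -0.088 and 0.028. Slc16a7, a close relative with higher affinity for pyruvate, had ratios of 0.027, -0.16, 0.48 and -0.021. Both carriers lay on either side of 0, and the 95% interval of each mean, -0.075 (SE 0.057) and 0.084 (SE 0.11), included 0. Slc16a11, a monocarboxylate carrier of liver, was lower in 3 pairs and higher in pair 3, at -0.66, -0.12, 0.22 and -0.21. Slc16a5 and Slc16a3, the lactate exporter, ran from -0.76 to 1.12 and from -0.70 to 0.65 across pairs.

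Among the 31 carriers of amino acids, creatine and osmolytes, 16 had a mean above 0 and 15 one below, with a median of 0.0059. The group held the single member whose pools did not overlap by diet. Slc6a8 takes creatine up into cells against its gradient. Its level was 9.84, 9.65, 9.71 and 10.00 in squalene pools 1 to 4 and 10.12, 10.10, 10.21 and 10.06 in Western pools 1 to 4. The highest squalene pool, pool 4, was just below the lowest Western pool, also pool 4, and the ratios were -0.27, -0.45, -0.50 and -0.054. The mean was -0.32 (SD 0.20, SE 0.063), a difference of -19.8% (-0.37 to -0.26 with single pairs left out). The enzymes that make creatine were in a list of carrier partners: Gatm and Gamt had mean ratios of 0.029 and -0.0076.

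Slc7a4, a relative of the cationic amino acid carriers without an established substrate, was also below 0 in all 4 pairs, at -0.18, -0.36, -0.080 and -0.12, with a mean of -0.19 (SE 0.069), or -0.12 without pair 2. Slc6a20a, a carrier of proline and other imino acids, was lower in pairs 1 to 3 and above 0 in pair 4, at -0.043, -0.35, -0.30 and 0.030, with a mean of -0.16 (SE 0.054), or -0.26 with the scanner's processed signals. Its repeat arrays differed, at -0.18 and 0.094 in pair 1 and at -0.22 and -0.47 in pair 2. Slc66a1, which exports cationic amino acids from lysosomes, was below 0 in every pair, from -0.26 to -0.034. Slc38a7, a lysosomal glutamine carrier, and Slc66a2 were above 0 in every pair, at 0.099, 0.11, 0.15 and 0.0093 and at 0.043, 0.088, 0.13 and 0.013. None of these last 3 was among the nominal carriers.

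Slc38a3, Slc38a4, Slc38a2, Slc1a4 and Slc1a5, other carriers of glutamine or neutral amino acids, each had ratios of both signs. Slc38a3, a glutamine carrier of hepatocytes, had ratios of -0.17, 0.11, 0.87 and -0.39, and Slc38a4, an amino acid carrier abundant in liver, had -0.029, -0.34, 0.44 and 0.077. Slc38a2, which cells raise when amino acids run short, had ratios of -0.31, 0.27, 0.53 and 0.053. Slc1a4 and Slc1a5 exchange small neutral amino acids. Slc1a4 was higher with squalene in pairs 1 and 4 and lower in pairs 2 and 3, at 0.51, -0.68, -0.53 and 0.73, so its mean was 0.0059 (SD 0.71, SE 0.067), the SE being that of the fit with the dye term. Slc1a5 was at 0.37, -0.26, -0.043 and -0.0070. The heavy chains Slc3a1 and Slc3a2, which anchor amino acid exchangers in the membrane, had means of 0.011 and 0.036, and Slc7a5, the large neutral amino acid exchanger that pairs with Slc3a2, had 0.021. For Slc7a5 the brightest probe missed the rule on 1 array, and its second probe was used.

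Slc7a2, the main carrier of arginine and other cationic amino acids in liver, was at -0.38, -0.25, 0.30 and 0.37, below 0 in pairs 1 and 2 and above in pairs 3 and 4. Slc7a1, its more widely expressed relative, was at 0.55, -0.19, -0.86 and 0.13. Slc6a6, the taurine carrier that supplies bile acid conjugation, had ratios of -0.16, 0.041, -0.66 and 0.15, and only pair 3 stood far from 0. Its mean of -0.16 (SD 0.36, SE 0.13) was 0.017 without pair 3 and -0.34 without pair 2. The 95% intervals of the means of Slc7a2 and Slc6a6 included 0.

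Of 20 measured (21 listed) amino acid response genes, which cells raise when amino acids are short and several of which control carriers, 10 had a mean above 0, and the median was -0.0022. The unadjusted limma p was under 0.05 for Ddit4, lower at -0.67, and for Trib3, higher at 0.25. Trib3 ran by orientation, at 0.75, -0.18, -0.19 and 0.61, as Slc1a4 did. Its SD between pairs was 0.50 and its SE 0.057, the SE being that of the fit with the dye term. None of the 20 genes passed the adjusted test.

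The 26 carriers of organic cations, anions, urate and bile acids had a median of -0.0058, with 12 means above 0. Slc10a2, the sodium-coupled bile acid carrier known from ileum and from bile duct cells, had the smallest SD between pairs of the nominal carriers. Its level was 10.14, 9.91, 10.01 and 9.45 in squalene pools 1 to 4 and 9.92, 9.63, 9.78 and 9.21 in Western pools 1 to 4. Within each pair, with repeat arrays averaged, the squalene pool was higher by nearly the same amount, 0.22, 0.28, 0.24 and 0.24. The pools of both diets differed among themselves by more than that, and the groups overlapped. The mean was 0.25 (SD 0.027, SE 0.053), 18.6% higher. With single pairs left out it was 0.23 to 0.26. On the 4 arrays of the repeated pairs the ratio was 0.26 and 0.18 for pair 1 and 0.19 and 0.38 for pair 2. Of 8 bile duct markers 6 were measured, and their mean ratio was -0.26, -0.0058, -0.071 and 0.15 in pairs 1 to 4, with mean levels of 7.12 to 7.40 on squalene and 7.19 to 7.46 on Western diet. Epcam and Cftr were not measured.

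Slc17a9, which loads nucleotides into vesicles, was above 0 in all 4 pairs, at 0.024, 0.25, 0.31 and 0.014, with a mean of 0.15 (SE 0.053). Pairs 1 and 4 were almost at 0. Slc17a3, a urate and organic anion carrier of liver and kidney, had ratios of -0.35, 0.28, 0.53 and 0.087, and its second probe had a mean of -0.016 against 0.14.

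Slc22a7, the organic anion carrier of the hepatocyte membrane facing the blood, had the widest spread of all members. Its level was 11.34, 12.47, 12.77 and 12.34 on squalene and 12.58, 12.73, 11.65 and 12.77 on Western diet, and its ratio was -1.24, -0.26, 1.12 and -0.43. Pair 3 was more than 1 log2 unit above 0 and pair 1 more than 1 log2 unit below, and the mean was -0.21 (SD 0.98, SE 0.26). It was -0.55 without pair 3 and 0.14 without pair 2. Slc47a1, which passes organic cations into bile, was at -0.25, -0.061, 0.95 and -0.18, and Slc22a4, the ergothioneine carrier, at -0.14, -0.085, 0.92 and 0.13. In both, pair 3 was far above the rest. Slc22a27, Slc22a28 and Slc22a29 belong to a cluster of near-identical genes whose probes may share signal, as may Slc22a13 and Slc22a13b, so their values are uncertain.

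**Figure D2:**
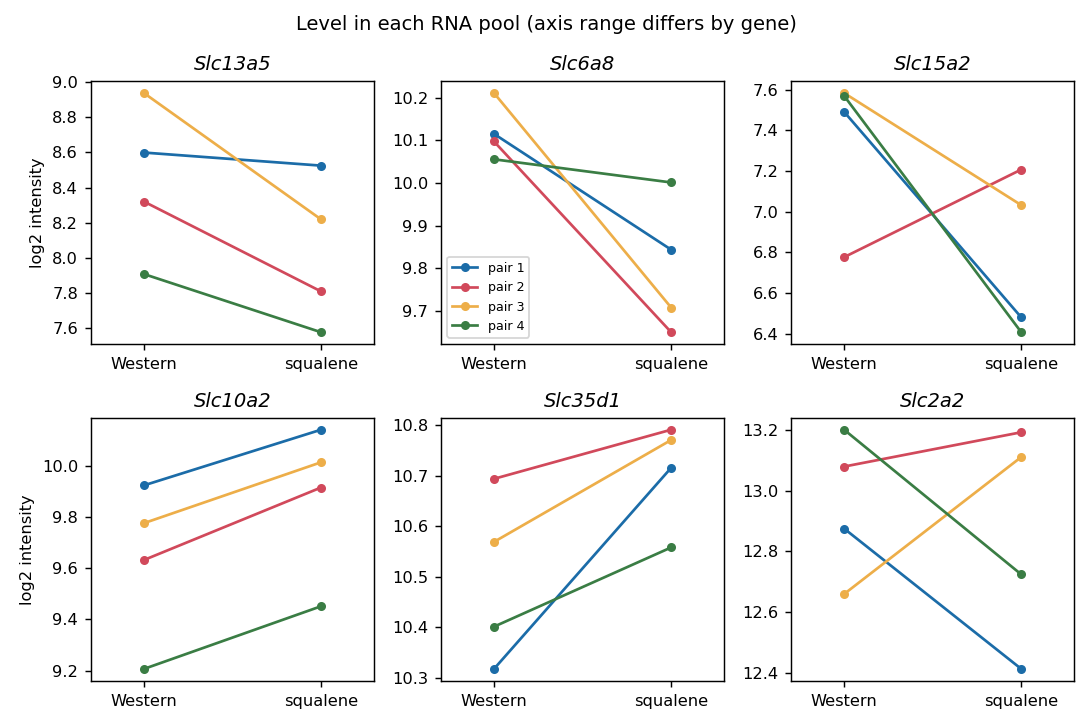
Level in each RNA pool, as log2 intensity, on Western diet and with squalene for 6 carriers, with a line joining the 2 pools of 1 array pair. Slc13a5, Slc6a8, Slc10a2 and Slc35d1 slope the same way in all 4 pairs, Slc15a2 in 3 of 4 and Slc2a2 in 2 of 4, and the vertical range differs by panel.

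Glucose leaves and enters the hepatocyte through Slc2a2 and is freed from glucose 6-phosphate behind the carrier Slc37a4 of the endoplasmic reticulum. The level of Slc2a2 was 12.41, 13.19, 13.11 and 12.72 in squalene pools 1 to 4 and 12.88, 13.08, 12.66 and 13.20 in Western pools 1 to 4. Its ratio was -0.46, 0.11, 0.45 and -0.48, lower in pairs 1 and 4 and higher in pairs 2 and 3. Slc37a4 followed the same pattern at -0.59, 0.33, 0.98 and -0.38. The 95% interval of each mean, -0.094 (SE 0.075) and 0.083 (SE 0.12), included 0. The other carriers of hexoses and sugar phosphates brought the group to 18, with 7 means above 0 and a median of -0.011.

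Slc2a1, the basal glucose carrier of most cells, was higher in pairs 1 and 4 and lower in pair 2, at 0.45, -0.73, -0.017 and 0.54. Slc2a9, a urate carrier, was at -0.29, -0.61, 0.17 and 0.53, and Slc2a5, the fructose carrier, at -0.13, -0.22, 1.01 and 0.069, with pair 3 alone far from 0. Slc37a2, a sugar phosphate exchanger of the endoplasmic reticulum known from macrophages, had ratios of 0.12, -0.40, -0.40 and -0.055 and a mean of -0.18 (SE 0.059), or -0.36 with the scanner's processed signals. Its second probe had a mean of -0.0078. The 10 markers of lipid-associated macrophages, all measured and including Gpnmb and Trem2, had a mean ratio of 0.17, -0.67, -0.73 and -0.14 in pairs 1 to 4. That list's mean level was 9.72 to 10.42 on squalene and 10.25 to 10.53 on Western diet. Like Slc37a2 it was above 0 in pair 1 and below it in the other 3, and its part in the Slc37a2 ratio was not tested.

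The Slc35 family, most of whose known members bring nucleotide sugars into the endoplasmic reticulum and Golgi, had 21 members, 13 of them with a mean above 0, and a median of 0.033. Slc35d1 carries UDP-glucuronic acid, the sugar donor of glucuronidation, into the endoplasmic reticulum. Its level was 10.72, 10.79, 10.77 and 10.56 in squalene pools 1 to 4 and 10.32, 10.69, 10.57 and 10.40 in Western pools 1 to 4. It was higher with squalene in every pair, at 0.40, 0.097, 0.20 and 0.16, though squalene pool 4 lay below Western pools 2 and 3. The mean was 0.21 (SD 0.13, SE 0.067), 15.9% higher, and 0.15 to 0.27 with single pairs left out.

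Slc35a2, the Golgi carrier of UDP-galactose, was the other member of the family above 0 in all 4 pairs, at 0.11, 0.15, 0.19 and 0.13, with a mean of 0.14 (SE 0.053) and 0.041 from its second probe. Slc35b3, which carries the sulfate donor PAPS into the Golgi, was below 0 in all 4 pairs, at -0.038, -0.27, -0.040 and -0.067, with pair 2 apart from the rest. Slc35f6 was below 0 in all 4 pairs by its brightest probe, at -0.055, -0.28, -0.017 and -0.29, while its second probe had a mean of 0.038. Slc35f2 had a mean of -0.25 and was above 0 in pair 4 alone, at -0.46, -0.32, -0.32 and 0.087. Slc35b1, which brings ATP into the endoplasmic reticulum, was at -0.38, 0.49, 0.44 and -0.19, split by orientation.

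Slc15a2, which takes up di- and tripeptides with protons, had the lowest mean of all members. Its level was 6.48, 7.21, 7.03 and 6.41 on squalene and 7.49, 6.78, 7.58 and 7.57 on Western diet. The levels of squalene pools 1 and 4 were near the mean levels of the dimmest members, 6.37 to 6.46, where ratios can be compressed. Squalene pools 1, 3 and 4 were below their partners and squalene pool 2 was above its partner, at -1.01, 0.43, -0.55 and -1.16, and the groups overlapped. The mean was -0.57 (SD 0.72, SE 0.17), a difference of -32.8%. Its SE is smaller than its SD alone would give, since the dye term takes up the difference between pairs 1 and 4 and pairs 2 and 3. Without pair 3 the mean was -0.33 and without pair 2 it was -0.82, and with the scanner's processed signals -1.02. Its relatives in lysosomes, Slc15a3 and Slc15a4, carry peptides and histidine. Slc15a4 was at 0.076, -0.37, 0.20 and 0.60, on both sides of 0.

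The next 4 carriers, known from macrophages, each had ratios of both signs. Slc11a1, which pumps iron and manganese out of phagosomes, had ratios of 0.44, 0.23, -0.64 and -0.20. Slc15a3 was at 0.39, -0.077, -0.67 and -0.34. Slc7a7, an exchanger of cationic amino acids, was at 0.047, 0.14, -0.72 and -0.20, and Slc48a1, which exports heme from lysosomes, at 0.33, 0.0029, -0.53 and -0.15. All 4 were below 0 in pairs 3 and 4, and none had a mean whose 95% interval left out 0, with means of -0.045 (SE 0.18), -0.18 (SE 0.16), -0.18 (SE 0.15) and -0.088 (SE 0.12). Of 15 markers of Kupffer cells and macrophages 14 were measured, without Cd68. Their mean ratio was 0.20, 0.22, -0.61 and -0.52 in pairs 1 to 4. The mean marker level was 11.54 to 12.45 in the squalene pools and 11.66 to 12.25 in the Western pools. These 4 carriers were set beside each other after their values were seen, and the part of the marker shift in them was not tested.

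**Figure D3:**
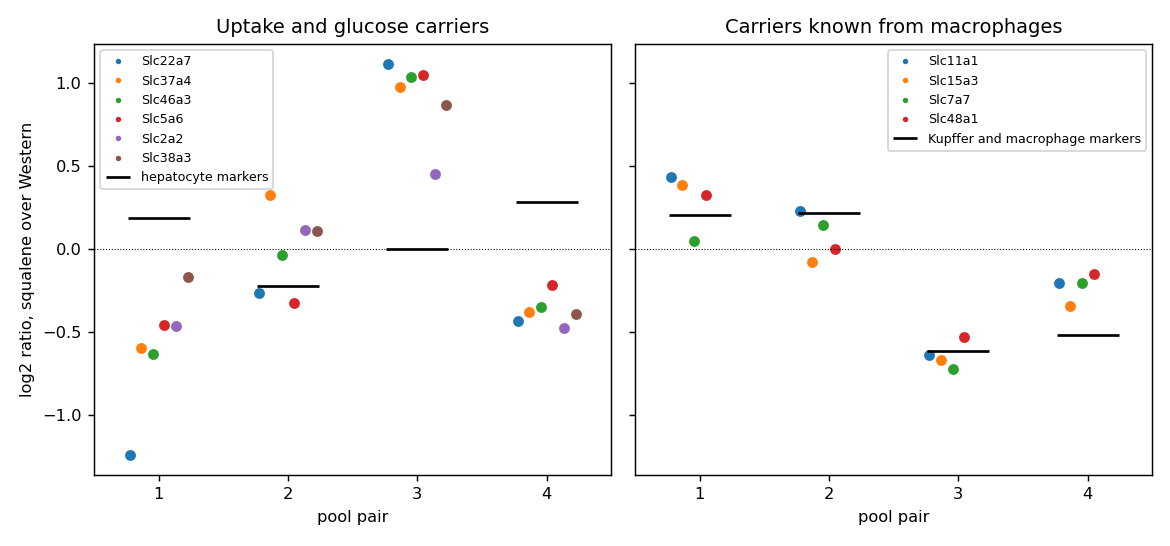
Log2 ratio of squalene over Western in each pool pair for 6 uptake and glucose carriers (left) and 4 carriers known from macrophages (right), chosen after their values were seen. Each point is 1 gene in 1 pair, and the black bar is the mean ratio of 13 hepatocyte markers (left) or 14 macrophage markers (right). In pair 3 the left carriers lie between 0.45 and 1.12 and the right carriers between -0.72 and -0.53. Slc46a3, on the left, is lysosomal. Uptake carriers that are not drawn went both ways in pair 3. Among them Slc13a5 was at -0.72, Slc6a6 at -0.66, Slc23a1 at 0.94 and Slc2a5 at 1.01, so the left panel does not stand for uptake carriers as a class.

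The 21 carriers of zinc, manganese, copper, iron and heme had a median of -0.021, and 7 had a mean above 0. Slc30a9 was the single nominal carrier here, at 0.022, 0.31, 0.40 and -0.094, higher in pairs 2 and 3 and near 0 in pairs 1 and 4, with a mean of 0.16 (SE 0.057) and 0.12 from its second probe. Without the dye term its unadjusted limma p was not under 0.05. Slc30a10, which exports manganese into bile, ran from -1.03 to 0.54, below 0 in 3 pairs. Its mean of -0.34 (SD 0.66, SE 0.25) was -0.73 without pair 2 and 0.049 without pair 3. Slc39a8, a zinc and manganese importer, was at -0.12, 0.16, -0.17 and -0.17, with pair 2 apart. Slc39a4, a zinc importer, was at 0.32, 0.26, -0.50 and -0.30, and Slc11a2, which imports iron, stayed within -0.21 to 0.11. The zinc-sensing regulator Mtf1 had a mean of 0.20.

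Among 12 carriers of vitamins, choline and cofactors none was a nominal carrier, and the median was -0.019. Slc44a1, a choline carrier, and Slc52a2, a riboflavin carrier, were below 0 in all 4 pairs, at -0.019, -0.24, -0.21 and -0.038 and at -0.20, -0.068, -0.032 and -0.20. Slc23a1, which takes up ascorbate with sodium, had the highest mean of all members, 0.28 (SD 0.47, SE 0.17), but its ratios were -0.12, -0.010, 0.94 and 0.32 and the mean was 0.045 without pair 3 and 0.52 without pair 2. Pair 3 was also far above the rest for Slc5a6, the carrier of biotin and pantothenate, at -0.46, -0.32, 1.05 and -0.22, for the lysosomal carrier Slc46a3, at -0.63, -0.032, 1.03 and -0.35, and for the folate carrier Slc19a1, at -0.38, -0.16, 0.69 and 0.0066. The mean ratios of Slc5a6, Slc46a3 and Slc19a1 were 0.013, 0.0060 and 0.040.

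Of the 4 carriers of phosphate and sulfate, both sulfate carriers were nominal carriers, in opposite directions. Slc13a4, sodium-coupled, was at -0.41, -0.52, 0.10 and -0.54, below 0 in 3 pairs, with a mean of -0.34 (SE 0.11). Its mean was -0.19 without pair 2 and -0.56 with the scanner's processed signals. Slc26a1, which exchanges sulfate for oxalate and bicarbonate, was at 0.52, -0.18, -0.069 and 0.37, above 0 in pairs 1 and 4 alone, with a mean of 0.16 (SE 0.060). This SE is that of the fit with the dye term, which takes up the split by orientation. Without that term the unadjusted limma p of Slc26a1 was not under 0.05. The phosphate carrier Slc20a1 had a mean of 0.23, 0.094 without pair 3 and 0.37 without pair 2. The 21 carriers of sodium, protons, chloride and bicarbonate had a median of 0.00020. Among them Slc4a11, which conducts protons and ammonia, was below 0 in every pair, at -0.27, -0.20, -0.049 and -0.22. Its mean was -0.19 (SE 0.058), or -0.47 with the scanner's processed signals, and its probe was dim, at a mean level of 6.50. Slc12a2, which brings sodium, potassium and chloride into cells and regulates their volume, had a mean of 0.028.

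Carriers of fatty acids and nucleosides lay close to 0. The 4 Slc27 members, which take up and activate fatty acids, had means of -0.0030 (Slc27a1), 0.075 (Slc27a2), 0.092 (Slc27a3) and 0.085 (Slc27a4). Slc27a2, the very-long-chain acyl-CoA synthetase of liver, had ratios of -0.12, -0.024, 0.43 and 0.023. Slc29a1, the equilibrative nucleoside carrier, was at -0.22, -0.11, 0.46 and 0.081, and Slc29a3, its lysosomal relative, at 0.077, -0.078, -0.26 and -0.11. Slc43a3, a purine nucleobase carrier, was near 0 in pairs 1 to 3 and at 0.44 in pair 4. Of 7 calcium and magnesium carriers 5 had a mean below 0, led by the magnesium carrier Slc41a2 at 0.24, -0.26, -0.49 and -0.32 and the mitochondrial sodium-calcium exchanger Slc8b1 at -0.096, -0.53, 0.029 and -0.23. The lysosomal Slc49a4 had a mean of -0.38 (SD 0.44, SE 0.17) and ran from -0.93 to 0.082. Its mean was -0.13 without pair 1 and -0.64 without pair 4. The vesicular monoamine carrier Slc18a1 was above 0 in every pair, at 0.062, 0.056, 0.14 and 0.049. Among the proteins named after carriers, the scaffold Slc9a3r1 was at -0.11, 0.0081, 0.72 and -0.23, and Slc4a1ap was above 0 in every pair, from 0.016 to 0.10, while its second probe had a mean of -0.045.

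**Figure D4:**
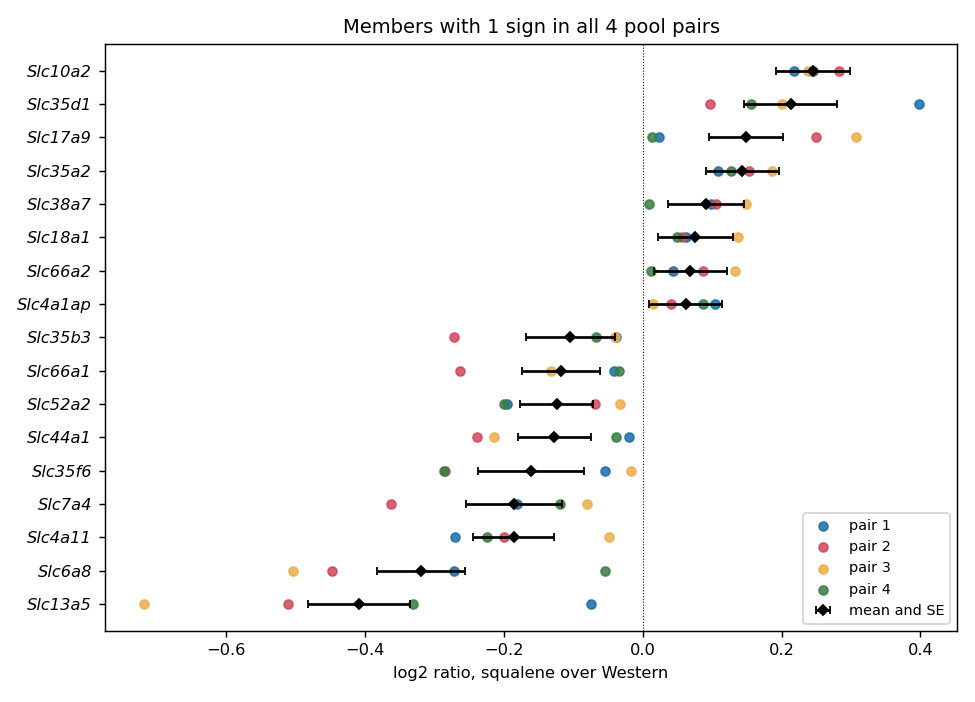
Log2 ratio of squalene over Western (horizontal axis) for the 17 members whose ratio had 1 sign in all 4 pool pairs. Coloured points are the pairs, and the black diamond with its bar is the mean and its SE. Of these, 8 lie above 0 and 9 below, and Slc13a5 and Slc6a8 are the farthest from 0.

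Among these 17 members the spread between pairs differed widely. Slc10a2 and Slc35a2 had SDs of 0.027 and 0.034 between pairs, against a median SD of 0.20 over the members and 0.16 over all features. Slc13a5 and Slc6a8 had SDs of 0.27 and 0.20. Over the members, the ratios on repeat arrays of the same pools had a technical SD of 0.077 in pair 1, with r = 0.926 between the arrays, and of 0.076 in pair 2, with r = 0.905. The SDs of Slc10a2 and Slc35a2 between pairs were below these, and those of Slc13a5 and Slc6a8 above them. These correlations are across 197 genes of the same RNA, which are not independent replicates.

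The pairs with squalene in Cy5 and those with it in Cy3 often disagreed in sign. The mean of pairs 1 and 4 and the mean of pairs 2 and 3 had opposite signs for 127 of 197 members, 64.5%, against 68.5% of the 18925 equally bright features. Across the members the ratios of pairs 1 and 4 correlated at r = 0.21 and those of pairs 2 and 3 at r = 0.021, while pairs 1 and 3 correlated at r = -0.48 and pairs 2 and 4 at r = -0.38. Over the equally bright features pairs 1 and 3 were at r = -0.435 and pairs 2 and 4 at -0.416. Slc1a4, Slc37a4, Slc2a2, Slc35b1 and Slc26a1 were among the members that split this way. Each pool was labelled with 1 dye only, so for these splits dye and pool cannot be told apart. Slc10a2, Slc13a5, Slc6a8 and Slc35d1 had the same sign in both orientations. This follows from their having 1 sign in all 4 pairs, for which they were named, and is no separate check.

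**Figure D5:**
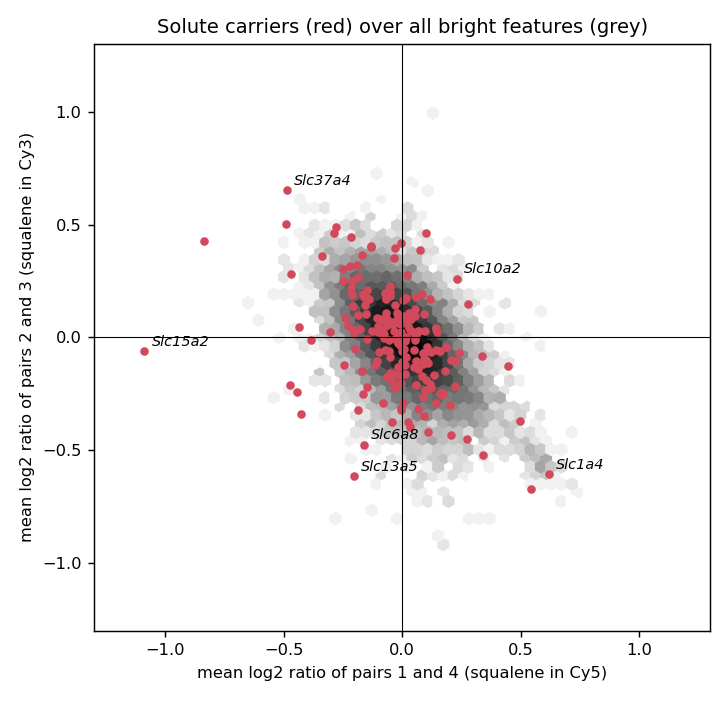
Mean log2 ratio of pairs 1 and 4, with squalene in Cy5 (horizontal axis), against that of pairs 2 and 3, with squalene in Cy3 (vertical axis). Red points are the 197 members and grey shading is the density of all equally bright features, log scaled; features beyond the axis limits are not drawn. Most members lie in the upper left and lower right, where the orientations differ in sign (127 of 197), and Slc10a2 lies in the upper right.

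Pair 3 had the widest ratios for the carriers, as it did for the equally bright features. A ratio past 0.5 either way was found there for 34 members, 17.3%, against 7.08% of equally bright features. In pairs 1, 2 and 4 it was found for 7.61%, 5.58% and 4.57% of members, against 3.01%, 4.33% and 3.64%. Pair 3 held the ratio farthest from 0 for 85 members, 43.1% against 34.5%. The SD over members was 0.38 in pair 3 and between 0.23 and 0.28 in the others. Over the equally bright features it was 0.29 in pair 3 and between 0.21 and 0.24 in the others. Hepatocyte markers had mean ratios of 0.19, -0.22 and 0.28 in pairs 1, 2 and 4 and within 0.01 of 0 in pair 3, where single markers went both ways, from -0.85 for Trf and -0.77 for Fgb to 0.71 for Cps1 and 1.16 for Tat. Red cell markers were at 0.047, -0.45, -1.20 and 0.12 and markers of fibroblasts and stellate cells at 0.23, -0.50, -0.44 and 0.053. The part of these shifts in the members' ratios was not tested.

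Transporters outside the Slc names were read as a list of 34, of which 33 were measured, 16 with a mean above 0 and a median of -0.0039. None passed the adjusted test. Slco1a4, an organic anion uptake carrier of hepatocytes, had ratios of 0.58, 0.030, 1.46 and 1.07, all above 0, with a mean of 0.78 (SE 0.24). Abcc3, which pumps conjugates towards the blood, was at 0.27, 0.35, 0.13 and 0.20, with a mean of 0.24 (SE 0.064). Aqp8, a water channel, had a mean of -0.36. Partners and regulators of carriers were a list of 28 symbols, some of them second names of the same gene, and 25 were measured. Among these Emb, which escorts monocarboxylate carriers to the membrane, was below 0 in all 4 pairs, at -0.098, -0.11, -0.30 and -0.20. Khk, the fructokinase behind the fructose carriers, was below 0 in all 4 pairs, at -0.13, -0.17, -0.17 and -0.11. Pdzk1, a scaffold that binds carriers at the membrane, was above 0 in all 4 pairs, at 0.11, 0.16, 0.077 and 0.11. In that list 10 of the 25 had a mean above 0.

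The members just inside the rule, those with the dimmest probe, were Slc10a6, Slc9a9, Slc29a2 and Slc12a8, at mean levels of 6.37, 6.39, 6.42 and 6.46. Just outside it, with a probe above background on 5 arrays, were Slc18a3, Slc32a1, Slc26a2 and Slc39a9, at 6.78, 6.42, 6.34 and 6.23. In all, 32 genes in scope met the mark on 1 to 5 arrays and 88 on none, and 14 of the genes outside the rule still entered the fit. Their mean ratios ran from -0.15 for Slc9b2, a sodium-proton exchanger, to 0.14 for Slc18a3, and the unadjusted limma p was under 0.05 for Slc9b2. Slc7a11, the cystine importer, met the mark on 0 arrays and Slc51b, a subunit of the bile acid exporter, on 1. Of 43 members with more than 1 probe that met the rule, 28 had the same sign in all of them and 15 did not.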

How the data were processed

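Liver RNA pools were compared on two-colour arrays, 200 ng of RNA per label, per the labels' protocols. Per the file headers, the scanner output came from version 10.7.3.1 of Agilent Feature Extraction. The deposited files gave spot and background intensity per channel, processed intensity, log10 ratios of red over green and 0 or 1 scores for control spots, outliers and signal above background. The value table that the authors deposited has log10 ratios in every column. Its columns of pair 1 each held 2 oversized cells, which were left out, and were listed as scores for that reason alone. The table equalled log10 of squalene over Western of the raw medians within 0.001 for 99.932% to 99.938% of spots, and its column medians ran from -0.27 to 0.2696. It was not centred. The sources used here do not state its processing.

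Each array had 62976 spots, 3671 of them controls. In a channel, 48.67% to 54.16% of spots passed the scanner's mark for signal well above background, and 0 were saturated. The number of arrays limits the precision. RefSeq (GRCm38.p6) gave a symbol to 26762 of 55681 probes. In R 4.3.3 with limma 3.58.1, median signals were corrected with normexp (offset 50) and loess within arrays, with controls at weight 0 and outliers left out. The plan's replicate was the pool pair, so repeat arrays were averaged. A probe that passed this mark in the channel of either diet in 3 or more pairs was kept (26853 probes), and the brightest stood for each gene (20659 features, 13312 with a symbol). lmFit and eBayes fitted a dye intercept and the squalene effect (3.04 prior and 2 residual degrees of freedom), with Benjamini-Hochberg adjustment over all features. Levels are log2 values of 1 channel, after Aquantile on the loess output, with mean and SD over 4 pools. The fit was tested on simulated data.

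The members, transport classes and lists were chosen with earlier results of these data known. Named carriers were, of those with 1 sign in all pairs, up to 12 on each side by smallest p, the 2 with the smallest p in each transport class, and a list of common liver carriers: 72 in all. The classes of Slc4a1ap, Slc7a6os, Slc9a3r1, Slc9a3r2 and Slc49a4 were set after the symbols were seen. Carriers named for their spread between pairs, their probes or their place beside a named relative were chosen after their values were seen. Alternatives changed the normalisation and background correction, the filter on probes, the dye term, the slide, the probes per gene, the variance model and which pairs entered. The single-gene results of some named carriers are not reported here.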

Additional observations from a re-analysis of the deposited data

Results flagged for a closer look

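Of 72 named carriers, 6 had a single pool pair whose ratio stood far from the other 3 by Dixon's criterion for 4 values, which chance alone meets in about 1 in 20 groups. That is 8.33% of the named carriers, against 6.09% of the 197 members, 4.69% of the equally bright features and 4.74% of all features. Pair 3 stood apart for Slc5a6, at 1.049 with the next ratio at -0.22, for Slc47a1, at 0.9511 with the next at -0.061, and for Slc18a1, at 0.1374 with the next at 0.062. Pair 2 stood apart for Slc39a8, at 0.1558 with the next at -0.12, and for Slc35b3, at -0.2719 with the next at -0.067. Pair 4 stood apart for Slc43a3, at 0.4391 with the next at -0.049.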

How the results depend on the processing

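No carrier passed an adjusted p of 0.05 in any of 15 alternatives (limma, with unadjusted counts below), and 39 of 72 named carriers kept their sign in all 15. The 72 include the 17 members with 1 sign in all 4 pairs. Those could not change sign with 1 pair left out or without the dye intercept, so the 39 was partly set by the choice. No such count was made over all members. The number of carriers with unadjusted p under 0.05, 14 as reported, was 8 with the scanner's processed signals, 6 with median centring in place of loess, 6 with the deposited value table, 8 without the dye intercept and 7 to 28 with 1 pair left out. The carriers' median was -0.022 with processed signals and 0.010 with median centring, on either side of 0. Over all features, 0 passed the adjusted test as reported, 2 after median centring and 8 in the deposited table. With a term for the slide and the pool pair as a block, 4 passed. An unadjusted p under 0.05 was found for 511 features as reported, 588 with the scanner's processed signals, 202 with median centring and 183 with the deposited table. It was found for 936 of 37148 with no filter on dim probes, 254 without the dye intercept and 362 to 1303 with 1 pair left out. With processed signals the count thus rose over all features and fell among the carriers. The causes were not tested, except that the unfiltered count is over more features. The fit is on ratios within arrays and so is paired by array. The slide was not a term in the reported fit and entered as one only in the alternative with the pool pair as a block. Limits: the 4 pool pairs cannot show spread between mice, and 2 residual degrees of freedom make single p-values depend on the dye term. Dim carriers near background can have compressed ratios, and most of the 120 genes in scope outside the rule did not enter the fit.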
